A study of Mus musculus with 16 samples.

Results

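The peaks described here lie in windows around 5 mouse genes that oppose muscle differentiation: Pax7, Pax3, Id1, Id2 and Id3. A peak belonged if it overlapped the window of its gene on the mm9 build, and 214 of the 193322 peaks in the 4 deposited lists did so. These were 57 RUNX1, 50 MyoD, 50 c-Jun and 57 MyoG peaks. The windows ran on chromosome 4 from 139240000 to 139450000 for Pax7, on chromosome 1 from 78050000 to 78250000 for Pax3, and on chromosome 2 from 152510000 to 152610000 for Id1. That of Id2 ran on chromosome 12 from 25700000 to 25860000, and that of Id3 on chromosome 4 from 135650000 to 135750000. The windows were fixed by position and not by any score, but the loci were put together with earlier results of these data known. No annotation of mm9 was used, so the gene's own place within each window, and whether a peak lay in a promoter, an exon or an intron, are not given.

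The lists came from chromatin immunoprecipitation and sequencing (ChIP-seq), in which DNA bound by a factor is pulled down with an antibody and mapped as peaks. All cells were primary cultures of wild-type C57BL/6 satellite cells (resident muscle stem cells) taken from gastrocnemius muscle at 2 to 3 weeks of age. RUNX1 (an in-house antibody), MyoD and c-Jun were mapped in proliferating myoblasts after 3 days in culture. MyoG was mapped after 4 days, the last 24 hours in differentiation medium with 4% horse serum, in cells labelled as myotubes. Each factor had 2 ChIP and 2 control samples (non-immune rabbit serum for RUNX1, IgG for the others), labelled as biological replicates, and each factor had 1 list that carries no replicate. There was therefore no spread between replicates and no test between conditions. The MyoG list, named by an abbreviation, was assigned by elimination. Factor and cell stage changed together for MyoG and cannot be told apart. A region with MyoG and another factor joins peaks of different cell stages, so it does not show that they were bound at the same time. The lists hold no expression values, so the labelled cell types could not be checked against marker genes. Read depth is unknown, so a factor without a peak at a site is not shown to be absent there.

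Pax7 and Pax3 are paired-box transcription factors. Pax7 marks satellite cells and maintains them, and Pax3 acts in muscle progenitors of the embryo and in a subset of adult satellite cells; both are lowered as myoblasts differentiate. Id1, Id2 and Id3 are helix-loop-helix proteins without a basic region, so they cannot bind DNA themselves. They capture the E proteins that MyoD and MyoG need as partners, and so hold back myogenic transcription. MyoD and MyoG with an E protein bind the E-box CANNTG, RUNX1 with its partner CBFB binds TGTGGT and close variants, and c-Jun acts in AP-1 dimers that bind TGANTCA.

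Upstream sequence in RefSeq's promoter table (build GRCm38.p6, not the mm9 build of the peaks) was matched for Pax7, Id2 and Id3, and Pax3 and Id1 were not in it. The 250 bases before the start were searched on both strands for these letters. Id2 is shown because it held the only match, and Id3 because its window had the most regions with peaks of all 4 factors. Capitals mark the match. Id2 lies at chr12:25096093-25096342 on the minus strand and Id3 at chr4:136143572-136143821 on the plus strand, both in GRCm38.p6.
Id2: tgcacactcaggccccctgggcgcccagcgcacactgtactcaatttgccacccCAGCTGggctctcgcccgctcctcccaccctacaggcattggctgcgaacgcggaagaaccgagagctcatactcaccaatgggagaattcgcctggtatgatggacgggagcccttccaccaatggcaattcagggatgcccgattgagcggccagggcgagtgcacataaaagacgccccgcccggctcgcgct
Id3: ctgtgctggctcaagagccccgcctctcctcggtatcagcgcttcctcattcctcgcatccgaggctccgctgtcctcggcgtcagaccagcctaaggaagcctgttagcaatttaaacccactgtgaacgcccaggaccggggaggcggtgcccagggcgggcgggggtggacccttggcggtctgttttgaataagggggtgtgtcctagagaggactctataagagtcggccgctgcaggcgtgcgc
The capitals in Id2 are a CAGCTG, a form of CANNTG, which began 196 bases before the start. The Pax7 and Id3 stretches held 0 matches to any of these letters, and Id2 held 0 to TGTGGT and TGANTCA. Among all 32851 stretches of that length in the table, 66.2% held CANNTG, 13% CAGCTG, 14% TGTGGT and 6.75% TGANTCA. These are descriptions of letters near the start and do not place a peak there.

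The Id3 and Id1 windows were densely bound, the Pax7 window was intermediate, and the Pax3 and Id2 windows had the fewest peaks per 100 kb. In its 100 kb, Id3 held 14 RUNX1, 15 MyoD, 16 c-Jun and 14 MyoG peaks. Id1 held 16 RUNX1, 8 MyoD, 11 c-Jun and 12 MyoG peaks in a window of the same length. MyoD was thus the rarest factor at Id1, with 8 peaks against 16 of RUNX1. Pax7 held 14 RUNX1, 15 MyoD, 11 c-Jun and 22 MyoG peaks in 210 kb. MyoG was the most frequent factor there, at 10.5 peaks per 100 kb against 6.67 for RUNX1. Pax3 held 5 RUNX1, 7 MyoD, 6 c-Jun and 3 MyoG peaks in 200 kb, and Id2 held 8, 5, 6 and 6 in 160 kb.

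**Figure D1:**
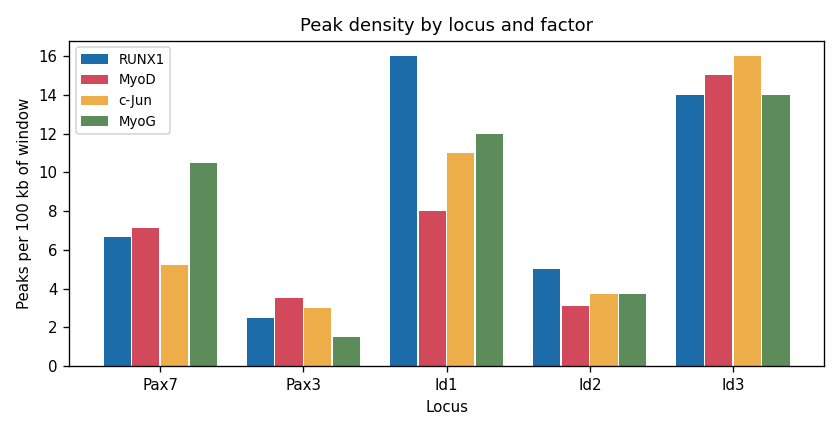
Peaks per 100 kb of window (vertical axis) for each factor (bar colours) at the 5 loci. Bars at Id1 lie between 8 and 16 and at Id3 between 14 and 16, against 1.5 to 3.5 at Pax3.

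For scale, each chromosome was tiled into adjoining windows of the same length, deserts without genes included, and the median window held 0 to 2 peaks of a factor. As many c-Jun peaks as at Id3 were found in 0.0152% of 26353 such windows of 100 kb, as many MyoD peaks in 0.163%, as many RUNX1 peaks in 0.281% and as many MyoG peaks in 1.92%. At Id1 the shares were 0.0987% for RUNX1, 0.512% for c-Jun, 3.35% for MyoG and 3.99% for MyoD. Both windows thus ranked high among windows of their length for RUNX1 and c-Jun. Because earlier results of these data were known when the loci were put together, these ranks are descriptions. At Pax7 the shares lay between 3.26% for MyoD and 6.52% for c-Jun, at Id2 between 10.8% for RUNX1 and 25.7% for MyoG, and at Pax3 between 20.4% for MyoD and 47.5% for MyoG. Pax3 and Id2 held more peaks of each factor than the median window of their length, which had 1 or 2, and these shares were larger than those of the other 3 loci. Median scores in the 5 windows were close to those of the lists. The score is the authors' own value for a peak, used here only to place a peak within its list. The medians were 191 for RUNX1 (177 in its list), 196 for MyoD (176), 193 for c-Jun (171) and 215 for MyoG (189).

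Joining peaks that overlapped by at least 1 bp gave 88 regions, of which 18 (20.5%) held all 4 factors and 15 (17%) held 3. Over the whole series, 10.7% of 99567 regions held 4 factors and 15% held 3. Id3 had 8 of the 18, Id1 had 5, Pax7 had 3, Id2 had 2 and Pax3 had 0. Bases covered by all 4 lists at once were present in 17 of the 18. The exception lay at Id3, where the peaks were joined only in a chain. Windows of 100 kb with at least 8 such regions made up 0.0228% of all, and windows with at least 5 made up 0.808%. The 3 at Pax7 were matched by 12.2% of windows of 210 kb, and the 2 at Id2 by 15.9% of windows of 160 kb. Without the Id3 window the 18 became 10, and with peak centres within 150 bp they became 9.

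**Figure D2:**
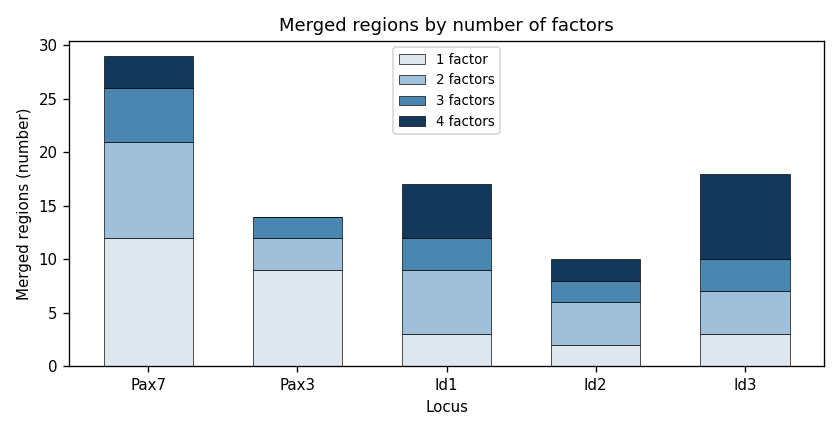
Number of merged regions (vertical axis) at each locus, split by how many of the 4 factors they held. Id3 has 8 regions with 4 factors among 18, Pax3 has 0 among 14.

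The shares of MyoD, c-Jun and MyoG peaks that met RUNX1 stood furthest above the whole lists. Of the 50 MyoD peaks, 31 (62%, exact binomial 95% interval 47.2 to 75.3%) met RUNX1, against 42.4% of the whole MyoD list. Of the 50 c-Jun peaks, 34 (68%, 53.3 to 80.5%) met RUNX1, against 46.8%. Of the 57 MyoG peaks, 38 (66.7%, 52.9 to 78.6%) met RUNX1, against 42.4%. In these 3 cases the list's value lay below the interval. By locus, c-Jun peaks met RUNX1 in 45.5% at Pax7 and 33.3% at Pax3. At Id1, Id2 and Id3 they did so in 90.9%, 83.3% and 75%. MyoG peaks met RUNX1 in 50% at Pax7, 66.7% at Pax3, 91.7% at Id1, 66.7% at Id2 and 71.4% at Id3. The MyoG share at Pax3 rests on 3 peaks. The intervals treat peaks as separate counts although neighbours at a locus share their surroundings, and no test was made. RUNX1 peaks were also wider in the windows, with a median of 1191 bp against 944 bp in the list. They were dense at Id1 and Id3, at 16 and 14 per 100 kb. The part of width and density in these shares was not tested. For MyoD peaks meeting RUNX1, the list's value lay inside the interval in 5 of the 10 alternatives. The share was 45.9% (29.5 to 63.1%, list 39.1%) at scores of at least 100, 53.8% (33.4 to 73.4%, list 35.3%) in the stronger 50% of each list, and 34% (21.2 to 48.8%, list 23.2%) with centres within 150 bp. It was 54.8% (38.7 to 70.2%) without the Id1 window and 57.1% (39.4 to 73.7%) without that of Id3, against 42.4%. The shares of c-Jun and MyoG peaks meeting RUNX1 were not recomputed under these alternatives.

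The other shares, including those of RUNX1 peaks that met the other factors, lay nearer to their lists. RUNX1 peaks met MyoD in 31 of 57 (54.4%, against 44.3%), c-Jun in 34 (59.6%, against 46.8%) and MyoG in 35 (61.4%, against 57.9%). MyoD peaks met c-Jun in 28 of 50 (56%, against 41.9%) and MyoG in 37 (74%, against 77.1%). c-Jun peaks met MyoD in 27 of 50 (54%, against 44%) and MyoG in 25 (50%, against 45.1%). MyoG peaks met MyoD in 38 of 57 (66.7%, against 57.7%) and c-Jun in 27 (47.4%, interval 34 to 61%, against 32.8%). Of these 9 shares, only that of MyoG with c-Jun had an interval that left out its list's value.

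**Figure D3:**
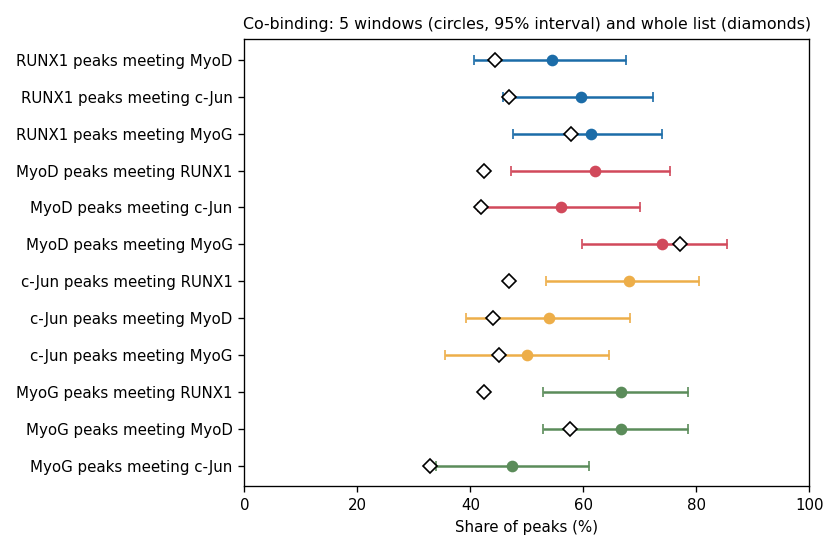
Share of peaks of one factor that meet a peak of another (horizontal axis, %) in the 5 windows (circles, with exact binomial 95% intervals) and in the whole list (open diamonds). The diamonds for meeting RUNX1 at MyoD, c-Jun and MyoG peaks, at 42.4%, 46.8% and 42.4%, lie left of the intervals.

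The Pax loci and the Id loci differed in how often their peaks coincided. At the Id loci 15 of 45 regions (33.3%) held all 4 factors and 8 (17.8%) held 1. At the Pax loci 3 of 43 (6.98%) held all 4 and 21 (48.8%) held 1. Over the whole series 10.7% of regions held all 4, and the Pax share lay nearer to this than the Id share. The whole-series share of regions with 1 factor was not computed. It is therefore not shown which of the 2 groups departs from it. At scores of at least 100, regions with all 4 factors numbered 3 at Pax7, 1 at Id1, 0 at Id2 and 5 at Id3. With centres within 150 bp they numbered 1, 1, 1 and 6 in that order. In the stronger 50% of each list they numbered 0, 1, 0 and 5. Pax3 had 0 throughout. Under these settings most Id regions with all 4 factors thus lay at Id3. MyoD peaks of myoblasts met a MyoG peak of myotubes in 25 of 28 (89.3%) at the Id loci and in 12 of 22 (54.5%) at the Pax loci. The whole-list share was 77.1%. The lower Pax value came from Pax3, with 1 of 7 (14.3%), while Pax7 had 11 of 15 (73.3%), near the whole list and near the 4 of 5 (80%) at Id2. RUNX1 met 23 of 28 MyoD peaks (82.1%) at the Id loci and 8 of 22 (36.4%) at the Pax loci, with 6 of 15 (40%) at Pax7 and 2 of 7 (28.6%) at Pax3. Peak density differed as well, at 36.4 peaks per 100 kb for the Id and 20.2 for the Pax windows, and its part in these shares was not tested. The difference between the gene families itself was not tested, since the loci are few and were put together with earlier results of these data known.

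**Figure D4:**
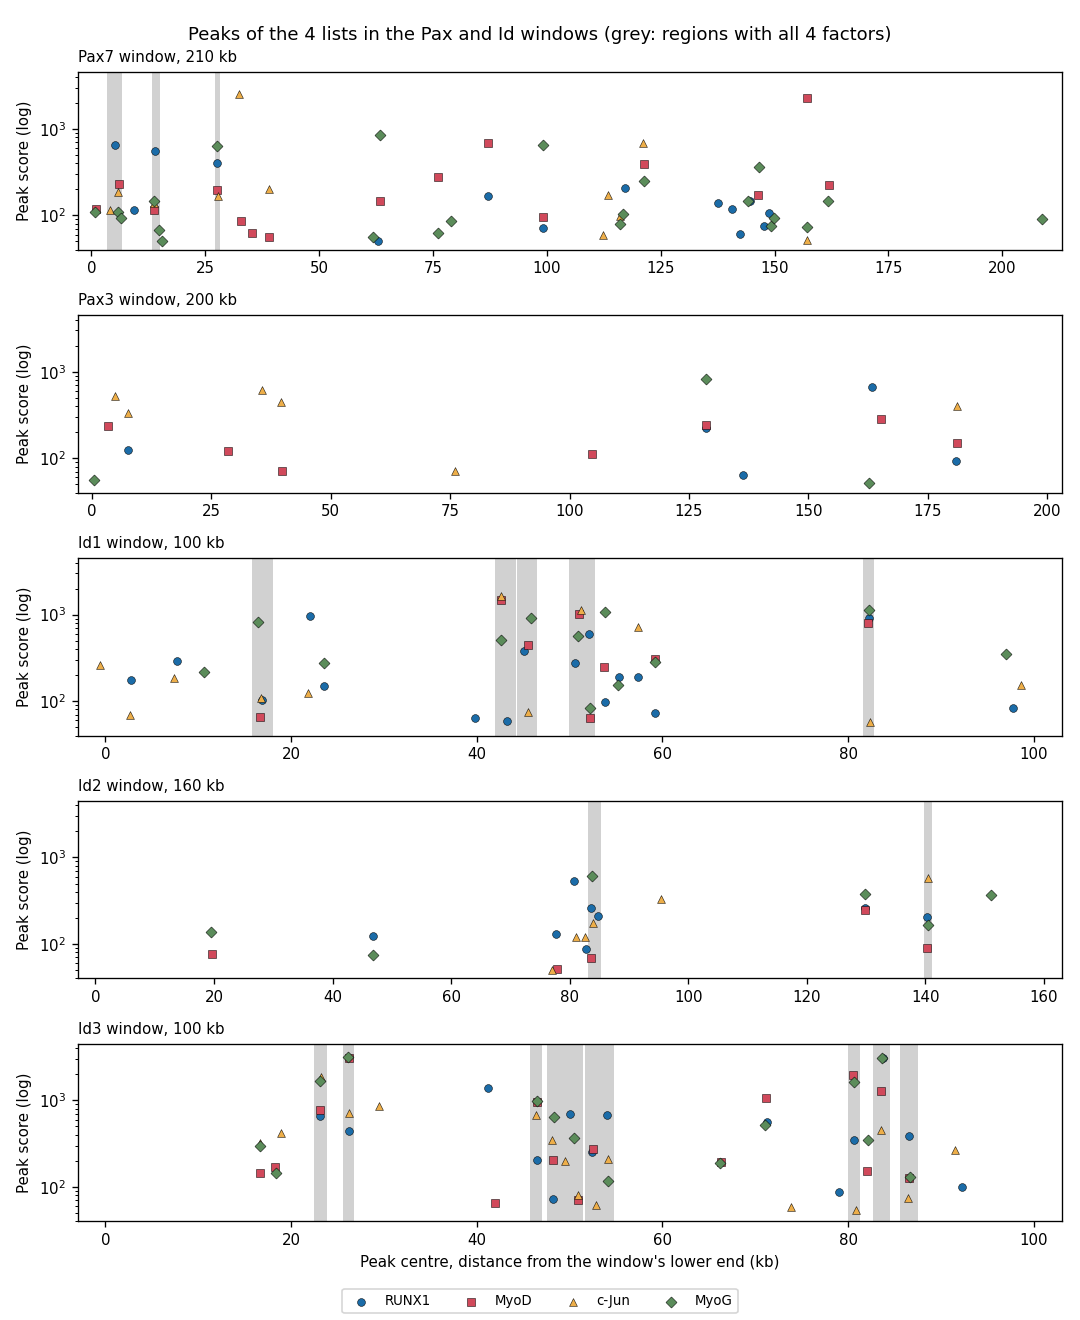
Every peak of the 4 lists by the distance of its centre from the lower end of its window (horizontal axis, kb) and its score (vertical axis, log scale), 1 panel per locus. Symbols give the factor and grey bands the 18 regions with all 4 factors, which gather in the Id3 and Id1 panels and are missing from the Pax3 panel.

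The Pax7 window held 29 regions, 12 of them with 1 factor. Its 3 regions with all 4 factors lay together near the lower end. The first, from 139243513 to 139246833, held the widest peak of any window, a RUNX1 peak of 3082 bp with a score of 657. MyoD there scored 232, c-Jun up to 184 and MyoG up to 111. The second, from 139253299 to 139255096, had RUNX1 at 556, MyoD at 115, c-Jun at 139 and MyoG up to 148. The third, from 139267190 to 139268311, had RUNX1 at 408, MyoD at 199, c-Jun at 168 and MyoG at 637. RUNX1 was above its list's median of 177 in all 3, and the other factors were above theirs in 4 of 9 cases. The RUNX1 peak of 657 was the highest of the window and lay within the highest 16.8% of its list.

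The strongest MyoD and c-Jun peaks of Pax7 lay elsewhere, beside low scores of other factors. MyoD reached 2278, within the highest 3.65% of its list, from 139396595 to 139397501. The MyoG peak at that site scored 73.9, within the highest 82.7% of its list, the c-Jun peak scored 52.0, within the highest 97.9%, and no RUNX1 peak was called. c-Jun reached 2526, within the highest 1.48% of its list, in a region from 139271862 to 139273203 with a MyoD peak of 85.3 and neither RUNX1 nor MyoG. The highest MyoG score, 840, within the highest 15.4% of its list, was in a region from 139301707 to 139303808 with MyoD at 149 and RUNX1 at 50.03.

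Another 3-factor region at Pax7, from 139338635 to 139339755, paired MyoG at 644 with MyoD at 96.7 and RUNX1 at 70.8. The region from 139360404 to 139361860 held c-Jun at 682, MyoD at 394 and MyoG at 253. That from 139355440 to 139357849 held RUNX1 at 210, c-Jun at 99.2 and MyoG up to 104, without MyoD. RUNX1 alone made up 5 regions at Pax7, with scores from 60.4 to 139, and 4 of these lay between 139376864 and 139388056. MyoG alone made up 4, with scores from 50.4 to 93.7. The stretch from 139402270 to 139448475 (46.2 kb) held no peak of any list, the longest such gap of the 5 windows.

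The Pax3 window held 14 regions, 9 of them (64.3%) with 1 factor and 0 with all 4. The median window of 200 kb also held 0 regions with all 4, and over the whole series 10.7% of regions held all 4. The whole-series share with 1 factor was not computed. Of its 7 MyoD peaks, 1 (14.3%, interval 0.361 to 57.9%) met a MyoG peak, against 77.1% of the MyoD list. Another 4 (57.1%) met no peak of any other list, against 14.2% of the MyoD list. c-Jun met MyoG at 0 of its 6 peaks (interval 0 to 45.9%), and the c-Jun list's 45.1% lay inside that interval. The single site shared between MyoD and MyoG, from 78178227 to 78179071, had MyoG at 819, MyoD at 239 and RUNX1 at 226. This MyoG peak lay within the highest 15.9% of its list, while the other 2 MyoG peaks of the window scored 52.0 and 56.0. The other 3-factor region, from 78230462 to 78231658, held c-Jun at 399, MyoD at 149 and RUNX1 at 93.7.

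The highest RUNX1 score at Pax3 was 668, within the highest 16.5% of its list, in a peak from 78212137 to 78214482 that met only the MyoG peak of 52.0. The highest MyoD peak, at 283 from 78214862 to 78215530 (highest 36.5%), lay beside it and met no list. c-Jun had a median of 425 at Pax3, against 171 in its list, and 5 of its 6 peaks were above that list median. Its highest, 620 from 78084806 to 78086203 (highest 17.1%), was also the highest-scoring peak of the window that met no other list.

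The Id1 window held 17 regions, of which 5 held all 4 factors, and 16 RUNX1 peaks that met another list in 15 cases. Over the whole RUNX1 list, 25.2% of peaks met no other list. All 8 MyoD peaks (interval 63.1 to 100%) met both RUNX1 and MyoG. In the whole MyoD list 42.4% met RUNX1 and 77.1% met MyoG, the latter inside that interval. Of the 5 regions with all 4 factors, 3 followed each other between 152551947 and 152562699. The first, ending at 152554272, carried the highest MyoD and c-Jun scores of the window, 1466 (highest 7.34% of its list) and 1648 (highest 3.99%), with MyoG at 513 and RUNX1 at 58.7. The second, from 152554288 to 152556512, had MyoG at 917, MyoD at 449, RUNX1 at 377 and c-Jun at 74.9. The third, from 152559946 to 152562699, held 7 peaks, with c-Jun at 1128, MyoD up to 1004, RUNX1 up to 604 and MyoG up to 568. RUNX1 was below its list's median in the first of these and above it in the other two.

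Another region with all 4 factors at Id1, from 152591656 to 152592737, had MyoG at 1130, RUNX1 at 920, MyoD at 791 and c-Jun at 56.7. The MyoG value was the highest MyoG score of the window and lay within the highest 10.5% of its list. The remaining one, from 152525729 to 152528082, had MyoG at 826 while c-Jun, RUNX1 and MyoD scored 109, 104 and 65.5. With scores of at least 100 required, 1 of the 5 regions was left.

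MyoG was above its list's median of 189, and RUNX1 below its own, in all 3 of the 3-factor regions at Id1. From 152563309 to 152564331, MyoG scored 1078, MyoD 247 and RUNX1 98.9. From 152568764 to 152569692, MyoD scored 304, MyoG 284 and RUNX1 73.7. From 152606651 to 152609169, MyoG scored 354, c-Jun 155 and RUNX1 82.8, without MyoD. The MyoG and c-Jun peaks of that region did not overlap, and each met only its RUNX1 peak. The highest RUNX1 peak of the window, 958 (highest 10.5%), from 152531422 to 152532528, met a c-Jun peak of 123 and neither MyoD nor MyoG. RUNX1 with c-Jun and no other factor made up 4 regions at Id1.

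At Id2, RUNX1 was the most frequent factor, with 8 peaks. The window held 10 regions, 2 of them with all 4 factors. All 8 RUNX1 peaks met another list, while 25.2% of the whole RUNX1 list met none. Most RUNX1 peaks sat in a run from 25776599 to 25785265, which held 5 of the 8. In that run, the region with all 4 factors, from 25783154 to 25785265, had MyoG at 604 (highest 21.8%, the top MyoG peak of the window), RUNX1 up to 258, c-Jun at 176 and MyoD at 68.3. The region from 25776599 to 25778563 held RUNX1 at 132 with MyoD at 51.0 and c-Jun at 50.4, both near the lowest score of their lists. Its MyoD and c-Jun peaks did not overlap, and each met only the RUNX1 peak. The highest RUNX1 peak of the window, 540 (highest 20.7%) from 25779541 to 25782017, met a c-Jun peak of 120 only.

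The other region with all 4 factors at Id2, from 25839805 to 25841165, had c-Jun at 582 (highest 18.2%), the highest c-Jun score of the window, with RUNX1 at 206, MyoG at 164 and MyoD at 89.4. From 25829235 to 25830494, MyoG at 379, RUNX1 at 262 and MyoD at 250 coincided without c-Jun. That MyoD peak was the highest of the window, within the highest 39.8% of its list. MyoD at Id2 was low, with a median of 76.7 against 176 in its list and 1 of 5 peaks above that median. With scores of at least 100, its 5 peaks became 1 and the regions with all 4 factors became 0.

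Id3 held the highest RUNX1, MyoD and MyoG scores of the 5 windows and the most regions with all 4 factors. Of its 18 regions, 8 held all 4 factors. Of its 15 MyoD peaks, 13 (86.7%, interval 59.5 to 98.3%) met MyoG, and the MyoD list's 77.1% lay inside that interval. RUNX1 was met by 11 (73.3%, 44.9 to 92.2%, list 42.4%) and c-Jun also by 11 (73.3%, 44.9 to 92.2%, list 41.9%). Each of the 4 peaks of the windows at or above the score ceiling of 3100 lay here. Many peaks tie at 3100 and others lie just above it, so peaks at or above it are given without an order. The region from 135675591 to 135676819 had MyoD at 3100 and MyoG at 3138, with c-Jun at 716 and RUNX1 at 440. The region from 135732674 to 135734570 had RUNX1 at 3100 and MyoG at 3100, with MyoD at 1288 and c-Jun at 457. Over the whole lists, 0.979% of RUNX1, 1.92% of MyoD and 1.24% of MyoG peaks were at or above the ceiling. In c-Jun that share was 0.764%, and 0 of its 50 peaks in the windows reached it.

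A further site at Id3, from 135672475 to 135673861, had c-Jun at 1864 (highest 3.06%), the highest c-Jun score of the window, MyoG at 1697, MyoD at 771 and RUNX1 at 665. Peak centres of the 4 factors spanned 44 bp there and 42 bp at the site with MyoD at the ceiling. Over the 18 regions with all 4 factors the median span was 288 bp, so these sites had close centres. From 135729965 to 135731333, MyoD scored 1970, MyoG 1637, RUNX1 352 and c-Jun 53.5.

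Near the middle of the Id3 window, 3 regions with all 4 factors followed each other from 135695749 to 135704810. The first, ending at 135697035, had MyoG at 973, MyoD at 969, c-Jun at 681 and RUNX1 at 206. The second, from 135697566 to 135701425, was the longest region of the windows at 3860 bp and held 9 peaks, with RUNX1 up to 694, MyoG up to 639, c-Jun up to 347 and MyoD up to 205. The third, from 135701650 to 135704810, was the chain without common bases, with RUNX1 up to 669, MyoD at 276, c-Jun up to 207 and MyoG at 116. The last region with all 4 factors, from 135735644 to 135737537, had RUNX1 at 385, above its list's median, and MyoG at 131, MyoD at 127 and c-Jun at 74.7, all below theirs.

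The 3-factor regions at Id3 all held MyoD and MyoG. From 135720638 to 135721959, MyoD scored 1066, RUNX1 561 and MyoG 524. From 135666011 to 135667226, c-Jun scored 319, MyoG 299 and MyoD 143, and from 135667877 to 135669858, c-Jun scored 414, MyoD 169 and MyoG 144. MyoG without MyoD was found in 0 regions at Id3, against 7 at Pax7, 4 at Id1, 2 at Id2 and 2 at Pax3. In the chain region of Id3, however, the MyoG peak of 116 met RUNX1 and c-Jun but no MyoD peak. A RUNX1 peak of 1372 from 135690288 to 135692156, within the highest 6.12% of its list, met a MyoD peak of 65.1 and neither c-Jun nor MyoG.

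Sites that appeared in a single list were the minority of peaks. Of the 214 peaks, 29 met no other list: 12 at Pax7, 9 at Pax3, 3 at Id1, 2 at Id2 and 3 at Id3. By factor they were 9 c-Jun, 8 RUNX1, 7 MyoG and 5 MyoD peaks, or 18%, 14%, 12.3% and 10% of each factor's peaks, against 33.8%, 25.2%, 26.6% and 14.2% in the whole lists. MyoG alone thus made up 7 of 88 regions, against 16.7% of all regions. The highest such peak at Id3 was c-Jun at 858 from 135678879 to 135680119, and at Id2 it was MyoG at 366 from 25850403 to 25851690. At Id1 it was c-Jun at 259 from 152508431 to 152510344, which crossed the edge of the window and was the only peak to cross one. At Pax7 it was c-Jun at 173 from 139352858 to 139353889.

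MyoD and MyoG, related factors mapped at successive stages, met in 38 pairs of peaks, with centres a median of 69 bp apart (56 bp over the whole lists). Their scores were loosely ordered alike, with a Spearman correlation of 0.38 over the 38 pairs and 0.50 over the 36433 pairs of the lists. The pairs come from pooled libraries and neighbouring sites, so the value is a description. At Id3 the 3 highest MyoD peaks met high MyoG peaks, and MyoD at 3100, 1970 and 1288 went with MyoG at 3138, 1637 and 3100. Pax7 differed, with MyoD at 2278 beside MyoG at 73.9, and MyoD at 691 from 139326680 to 139327685 without a MyoG peak. In the other direction, MyoG at 826 (Id1) and 604 (Id2) went with MyoD at 65.5 and 68.3. Scores of 2 lists are not on a common scale, so these values do not measure a change between stages.

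**Figure D5:**
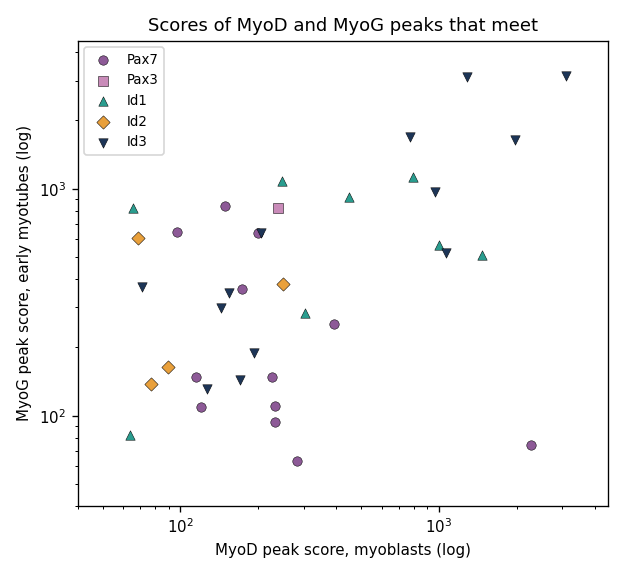
Score of each MyoD peak in myoblasts (horizontal axis, log scale) against the MyoG peak it meets in early myotubes (vertical axis, log scale), 38 pairs by locus. The Id3 sites range from low scores of both factors to the upper right, where some Id1 sites also lie. A Pax7 site with MyoD at 2278 and MyoG at 73.9 lies at the lower right.

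Window edges and neighbours limit how peaks can be tied to a gene. Next outside the windows lay a RUNX1 peak of 73.6 at 1072 bp from the upper end of Id1, a c-Jun peak of 109 at 1533 bp from the lower end of Id2, and a MyoD peak of 99.3 at 2140 bp from the lower end of Id3. Just inside, the first MyoG peak of Pax7 (109) lay 493 bp and that of Pax3 (56.0) 198 bp from the lower ends. The Pax7 and Pax3 windows ended in open stretches, with the next outside peak at least 30968 bp away at every end. The nearest protein-coding genes by order in GRCm38.p6 were Mcts2 and Cox4i2 for Id1, Kidins220 and Rnf144a for Id2, and Rpl11 and E2f2 for Id3. For Pax7 they were Tas1r2 and Klhdc7a, and for Pax3 Epha4 and Gm2102. Which of these genes a peak acts on was not tested.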

How the data were processed

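The series measured binding of RUNX1, MyoD, c-Jun and MyoG by ChIP-seq in 16 samples of 8 groups. The authors deposited 1 peak list per factor with 5 columns: chromosome, start, end, a name that begins with that of the peak caller MACS, and a score. Per the deposited files, the score ran from 50.01 to 3233 in every list. Per the submitters' processing notes the build was mm9 and the tools CASAVA 1.7.0 and 1.8.2 and Bowtie. The caller's version and settings, the use of the controls and the handling of replicates are each "not given in the sources used here". Control samples were not analysed here. Depth per sample is unknown, and intervals (exact Clopper-Pearson) cover counting error only.

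Starts were made 1-based. Peaks were shared at an overlap of at least 1 bp, and shared peaks were joined into regions. The place of a peak is its rank by score in its list. Chromosome Y was left out of the tiled windows. The overlap code was tested on simulated lists. Members and lists were chosen with earlier results of these data known. Named in the text are each region of 3 or 4 factors, the highest peak of each factor and the highest peak that met no list at a locus; others were chosen after their values were seen. A planned list of other antagonist genes needed an mm9 annotation and was not used. Motifs were searched only in RefSeq promoters. Alternatives were a shared span of 50% of the shorter peak, centres within 150 bp, scores of at least 100, the stronger 50% of each list, windows shortened by 20 kb at each end, peak centres in the window, and each locus left out. Python 3.11.15, numpy 2.4.6, scipy 1.17.1 and matplotlib 3.10.9 were used.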

Additional observations from a re-analysis of the deposited data

How the results depend on the processing

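Of 76 alternatives to the counts and shares over the 5 windows, 61 stayed within 1.5 times (counts) or within the interval (shares), and 15 did not. With centres within 150 bp, the regions rose from 88 to 133 and those with all 4 factors fell from 18 to 9, and RUNX1 peaks meeting MyoD were 29.8%, RUNX1 peaks meeting c-Jun 26.3% and MyoD peaks meeting RUNX1 34% (whole lists 25%, 24.6% and 23.2%). Keeping the stronger 50% of each list leaves fewer peaks by construction: there were 30 RUNX1, 26 MyoD, 29 c-Jun and 29 MyoG peaks and 6 regions with all 4 factors. At scores of at least 100 there were 9 such regions, and 45.9% of MyoD peaks met RUNX1. Windows shortened by 20 kb at each end held 32 c-Jun and 37 MyoG peaks. Without Id3, 10 regions had all 4 factors. Of 105 alternatives for single loci, 36 moved by over 1.5 times. No paired analysis was possible because no list separates its 2 ChIP samples, which also kept single replicates from being left out. Unknown depth limits what a missing peak shows.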

Other observations

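The 37 pairs of RUNX1 and c-Jun peaks that met had a Spearman correlation of scores of -0.13, against 0.12 over 20428 pairs of the whole lists, and their centres lay a median of 222 bp apart, against 143 bp. For MyoD with c-Jun the values were 0.01 over 28 pairs (0.20 over the lists) and 97 bp (118 bp). These are descriptions of sites in pooled libraries, and correlations this weak are no finding.

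The highest c-Jun score of the 5 windows, 2526 at Pax7, lay at a site where no RUNX1 or MyoG peak was called. The c-Jun peaks of 620 at Pax3 and 858 at Id3 met no other list. They were picked once their values were known.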
